A study of Mus musculus with 16 samples.

Results

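The let-7 family and miR-98 were described member by member in primary mouse embryonic fibroblasts (MEFs), across genotype, passage and oxygen. The members were the 10 rows of the array named mmu-let-7a, b, c, d, e, f, g and i, mmu-let-7d* and mmu-miR-98, out of 611 mouse miRNAs with probes, and the rule that picks them reads names and no measured value. All 10 were among the 235 miRNAs tested, those for which some group had both of its arrays above background. Of these, mmu-let-7d* passed only through the Ercc1-/- P3 20% O2 group. The 9 others share the let-7 seed, whereas mmu-let-7d* is the other strand of the let-7d hairpin and has a seed of its own.

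MicroRNAs are short RNAs that guide Argonaute proteins to mRNAs, mostly through pairing of the seed, the bases just after the 5′ end, and lower the output of those mRNAs. The let-7 miRNAs are abundant in differentiated cells, are held back at the precursor stage by the RNA-binding protein LIN28 in embryonic stem cells, and are known to repress Hmga2, Ras genes and other growth-promoting mRNAs. Members are made from separate hairpins, so that the same seed is supplied from several loci.

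The 16 arrays held 8 groups of 2: Ercc1-/- MEFs at P7 in 20% O2, at P7 in 3% O2, at P3 in 20% O2 and at P3 in 3% O2, and WT MEFs in the same 4 conditions. Ercc1 encodes a subunit of a DNA repair endonuclease, and MEFs that lack it senesce early in atmospheric oxygen, which low oxygen delays. All cells were on a mixed FVB/n and C57Bl/6 background, were passaged serially, and were collected at about the same confluence, and WT cells came from littermate embryos. The methods describe independent cell lines as replicates, but no label gives a line to an array, so that p-values measure only the spread between these arrays. Total RNA was hybridised, and lower signal cannot be told apart between fewer cells with a miRNA and less of it per cell. Ercc1 is an mRNA and has no probe on a miRNA array, so the genotype was not checked here.

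The sequences show how the members differ, since they share positions 2 to 8 and vary mainly in the 3′ part. Each is the mature strand from RefSeq (GRCm38.p6), 5′ to 3′, with the seed (bases 2 to 8) in capitals, and all 10 members were matched by name.
mmu-let-7a: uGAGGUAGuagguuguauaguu
mmu-let-7b: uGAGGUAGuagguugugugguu
mmu-let-7c: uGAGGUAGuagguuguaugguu
mmu-let-7d: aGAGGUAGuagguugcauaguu
mmu-let-7e: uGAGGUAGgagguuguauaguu
mmu-let-7f: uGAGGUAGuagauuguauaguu
mmu-let-7g: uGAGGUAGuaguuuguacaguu
mmu-let-7i: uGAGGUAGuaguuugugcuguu
mmu-miR-98: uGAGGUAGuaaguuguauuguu
mmu-let-7d*: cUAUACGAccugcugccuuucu
Against mmu-let-7a, with positions counted from 1 at the 5′ end, mmu-let-7c differed by A19G alone, mmu-let-7e by U9G alone and mmu-let-7f by G12A alone. The substitutions of mmu-let-7b were A17G and A19G, those of mmu-let-7d U1A and U16C, those of mmu-let-7g G12U and U18C, and those of mmu-miR-98 G11A and A19U. The most distant, mmu-let-7i, carried G12U, A17G, U18C and A19U. Out of 22 bases, mmu-let-7b had 10 G or C, mmu-let-7c, d, e and i had 9, mmu-let-7a and g had 8, and mmu-let-7f and mmu-miR-98 had 7. Probes for sequences this close can bind each other's targets, and the extent of this was not tested, so values of one member may hold signal of another.

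The mature strands mapped to few neighbourhoods. Mirlet7a-1 (chr13:48538239-48538260), Mirlet7f-1 (chr13:48537889-48537910) and Mirlet7d (chr13:48536078-48536099, with the mmu-let-7d* strand at chr13:48536024-48536045) lay together on the minus strand of chromosome 13. Mirlet7c-2 (chr15:85706616-85706637) and Mirlet7b (chr15:85707325-85707346) lay together on the plus strand of chromosome 15, and Mirlet7f-2 (chrX:151912353-151912374) and Mir98 (chrX:151913229-151913250) on the plus strand of the X chromosome. Mirlet7c-1 (chr16:77599672-77599693), Mirlet7e (chr17:17830366-17830387) and Mirlet7g (chr9:106178846-106178867) were on the plus strand and Mirlet7i (chr10:122985698-122985719) was on the minus strand. For mmu-let-7a, c and f there are 2 hairpins each, and the array gives 1 value for both.

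The arrays differed in ways that touch every result. Each replicate number was 1 slide, and on both slides P7 arrays and P3 arrays occupied separate rows. The columns held WT 20% O2, WT 3% O2, Ercc1-/- 20% O2 and Ercc1-/- 3% O2, in that order on both slides. Passage, genotype and oxygen therefore cannot be told apart from array position. Before scaling, the 57 miRNAs detected on every array had mean log2 signals between 7.91 and 9.29 on P7 arrays and between 9.31 and 9.77 on P3 arrays of slide 1. On slide 2 these lay between 5.80 and 7.99 on P7 arrays and between 6.98 and 8.65 on P3 arrays. The 2 replicates of a group correlated at r 0.488 to 0.920 at P7 and 0.930 to 0.975 at P3 across miRNAs. The array labelled WT P7 20% O2 replicate 1 stood apart: it correlated at r 0.945 to 0.979 with the P3 arrays of its slide, at 0.871 to 0.950 with the other P7 arrays of its slide, and at 0.740 with its own replicate. Its closest array was WT P3 20% O2 replicate 1, but the values were not identical, so it was kept as a separate sample. Several comparisons of the family, though not all, are given with and without it. Of markers of fibroblasts and other mesenchymal cells, 10 of 10 were above background on some array and 8 on all, with a summed log2 level of 13.8 to 14.7 at P7 and 14.3 to 14.7 at P3. Markers of epithelium (0 of 7), endothelium (0 of 2) and liver (0 of 1) were above background on no array, and those of blood cells (3 of 6 on any array) had summed levels of 4.08 to 6.65 at P7 and 4.23 to 6.25 at P3. Those of neurons (2 of 4 on any array) had summed levels of 3.50 to 6.59 at P7 and 3.50 to 4.21 at P3. Those of embryonic stem cells (2 of 5) had 4.17 to 6.91 at P7 and 3.96 to 6.22 at P3, and those of muscle (1 of 4) had 3.50 to 4.96 at P7 and 3.50 to 3.66 at P3. Of the neuronal list, miR-129-5p was above background on 5 arrays and miR-9* on 2, and miR-124 and miR-9 on no array. Of the stem cell list, miR-290-5p was above background on 9 arrays and miR-294 on 1. Of the muscle list, miR-206 was above background on 2 arrays, and miR-1, miR-133a and miR-133b on no array.

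In the question of what serial passage does to the family, 8 of the 10 members were lower at P7 than at P3 when averaged over genotype and oxygen. The 8 were mmu-let-7a, c, d, e, f, g, i and mmu-miR-98, with mean log2 changes of −1.59 to −2.89, while mmu-let-7b (−0.62) and mmu-let-7d*, which was mostly at the floor, did not pass the test. Over all 235 miRNAs 76 were called lower (32.3%) and 53 higher, with a median change of −0.39. A miRNA was called at a Benjamini-Hochberg adjusted p under 0.05 in limma, and levels are log2 processed signals after scaling of the arrays. The fit takes the arrays as independent. Differences between the 2 replicates were however alike across P7 groups (median r 0.811 over miRNAs) and across P3 groups (median r 0.607). The p-values of changes averaged over strata may therefore be too small. Under the 75th percentile of signal as the scale the median of all miRNAs shifted by 0.29 and the calls split into 60 lower and 64 higher, and with no scaling it shifted by −0.75 and they split into 38 lower and 6 higher, with 8 members called under each. The mean unscaled signal was 8.83 on P7 and 9.52 on P3 arrays of slide 1, and 6.98 on P7 and 8.12 on P3 arrays of slide 2, with overlapping ranges on slide 2. Markers moved with passage too: of the 10 mesenchymal miRNAs 4 were called lower and 2 higher at P7 (median −1.06), and miR-129-5p of the neuronal list (1.55) and miR-290-5p of the embryonic stem cell list (1.43) were called higher. The part of signal and of other cells in the changes was not tested. Sorted from the lowest change of all 235, mmu-let-7f stood 7th, mmu-miR-98 15th, mmu-let-7d 19th, mmu-let-7g 20th, mmu-let-7a 21st, mmu-let-7e 29th, mmu-let-7i 44th, mmu-let-7c 51st, mmu-let-7b 107th and mmu-let-7d* 112th.

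**Figure D1:**
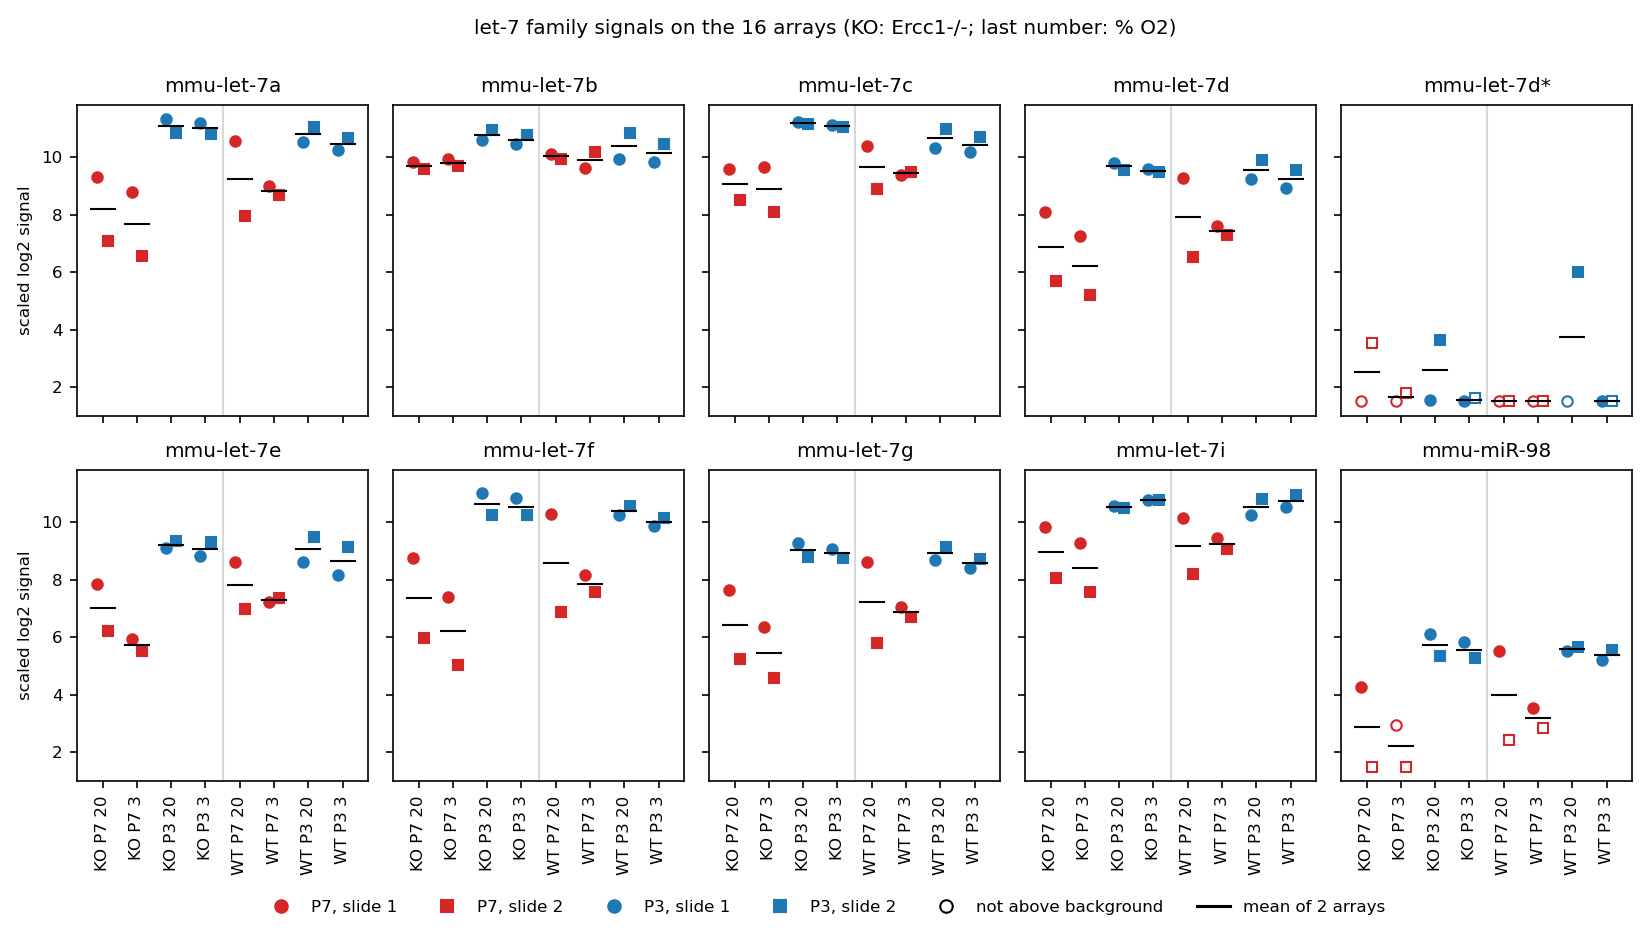
Scaled log2 signal of the 10 members on each of the 16 arrays, by group (KO is Ercc1-/-, the last number is % O2); red is P7 and blue P3, circles are slide 1 and squares slide 2, open symbols are not above background and lines are means of 2 arrays. The 9 seed-sharing members ran lower on most P7 arrays than on P3 arrays, with WT P7 20% O2 replicate 1 near the P3 values, while mmu-let-7d* was at or near the floor on most arrays.

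The steepest fall was that of mmu-let-7f, a member encoded on both chromosome 13 and the X chromosome. Its log2 levels on replicates 1 and 2 were 8.75 and 5.99 in Ercc1-/- P7 20% O2, 7.42 and 5.05 in Ercc1-/- P7 3% O2, 10.29 and 6.87 in WT P7 20% O2, and 8.18 and 7.57 in WT P7 3% O2. At P3 they were 11.04 and 10.26 in Ercc1-/- 20% O2, 10.85 and 10.26 in Ercc1-/- 3% O2, 10.27 and 10.56 in WT 20% O2, and 9.87 and 10.15 in WT 3% O2. All P7 arrays but WT P7 20% O2 replicate 1 lay below the lowest P3 array, and the lowest was Ercc1-/- P7 3% O2 replicate 2. The mean was 7.51 at P7 and 10.40 at P3, so that it changed by −2.89 (SE 0.58, adjusted p = 0.00639). The slides gave −1.85 (slide 1) and −3.93 (slide 2).

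At the other end, mmu-let-7b, which lies beside Mirlet7c-2, changed least of the 9 seed-sharing members when averaged over strata. Its change was −1.06 in 20% O2 and −0.80 in 3% O2 in Ercc1-/- cells, and −0.36 and −0.23 in WT cells. It had 9.81 and 9.59 in Ercc1-/- P7 20% O2, 9.93 and 9.69 in Ercc1-/- P7 3% O2, 10.13 and 9.92 in WT P7 20% O2, and 9.62 and 10.18 in WT P7 3% O2. Its P3 levels were 10.60 and 10.93 in Ercc1-/- 20% O2, 10.45 and 10.77 in Ercc1-/- 3% O2, 9.95 and 10.83 in WT 20% O2, and 9.83 and 10.45 in WT 3% O2. The passages overlapped in WT cells. In Ercc1-/- cells every P7 array was below every P3 array, as it was for each of the other seed-sharing members. The share of all miRNAs for which this held was not counted, so it is not read as particular to the family. The mean was 9.86 at P7 and 10.47 at P3 (change −0.62, SE 0.26, adjusted p = 0.0597). It was called without WT P3 20% O2 replicate 1 (adjusted p = 0.0407) and without Ercc1-/- P7 20% O2 replicate 1 (adjusted p = 0.0240). With the slide (the replicate number) as a block the adjusted p was 0.0351, so that 9 of 10 members were then called, against 95 of 235 miRNAs lower (40.4%).

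The dimmest seed-sharing member was mmu-miR-98, the X-linked neighbour of Mirlet7f-2. Its P7 levels were 4.26 and 1.50 in Ercc1-/- 20% O2, 2.93 and 1.50 in Ercc1-/- 3% O2, 5.53 and 2.43 in WT 20% O2, and 3.53 and 2.83 in WT 3% O2. At P3 it had 6.13 and 5.35 in Ercc1-/- 20% O2, 5.82 and 5.28 in Ercc1-/- 3% O2, 5.53 and 5.65 in WT 20% O2, and 5.20 and 5.56 in WT 3% O2. It was above background on 3 of 8 P7 arrays and on 8 of 8 P3 arrays, and 1.50 is the floor set for dim values. The means were 3.06 at P7 and 5.57 at P3 (change −2.50, SE 0.52, adjusted p = 0.00639). In Ercc1-/- cells in 3% O2, where neither P7 array was above background, it was at least 6.07-fold lower at P7, with each P7 array set at the lowest signal above background on it or at its own value if higher. No member was called in that stratum, so this fold only describes 2 arrays a side. Under normexp, another background correction, the change of mmu-miR-98 averaged over strata was −0.13 (adjusted p = 0.686 in limma).

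The remaining seed-sharing members differed mainly in the size of the fall. At P7 the lowest, median and highest of 8 arrays for mmu-let-7a were 6.57, 8.73 and 10.55, against 10.26, 10.82 and 11.34 at P3 (change −2.35, SE 0.49, adjusted p = 0.00639). For mmu-let-7d, from the same locus, they were 5.20, 7.26 and 9.26 at P7, against 8.94, 9.56 and 9.89 at P3 (change −2.39, SE 0.50, adjusted p = 0.00639). For mmu-let-7g they were 4.57, 6.53 and 8.61 at P7, against 8.41, 8.78 and 9.28 at P3 (change −2.37, SE 0.49, adjusted p = 0.00639). These 3 members moved by nearly the same amount, although the levels of different probes are not comparable. For mmu-let-7e the P7 arrays gave 5.52, 7.11 and 8.64, against 8.17, 9.12 and 9.51 at P3 (change −2.03, SE 0.36, adjusted p = 0.00379). For mmu-let-7c they gave 8.11, 9.43 and 10.39 at P7, against 10.17, 11.02 and 11.22 at P3 (change −1.59, SE 0.34, adjusted p = 0.00701). For mmu-let-7i they gave 7.58, 9.18 and 10.17 at P7, against 10.27, 10.66 and 10.97 at P3 (change −1.69, SE 0.40, adjusted p = 0.00819). Of the 10 members only mmu-let-7i had all P7 arrays below all P3 arrays, which held for 13 of 235 miRNAs (5.53%), and for mmu-let-7a, c, d, e, f, g and mmu-miR-98 the 1 P7 array that reached the P3 range was WT P7 20% O2 replicate 1.

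The strand with another seed, mmu-let-7d*, was not measurable on most arrays. It was at the floor on 10 of 16 arrays and above background on none of 8 at P7 and on 5 of 8 at P3. Its P7 levels were 1.50 and 3.55 in Ercc1-/- 20% O2, 1.50 and 1.79 in Ercc1-/- 3% O2, and 1.50 on all WT arrays. At P3 it had 1.55 and 3.64 in Ercc1-/- 20% O2, 1.50 and 1.61 in Ercc1-/- 3% O2, 1.50 and 6.01 in WT 20% O2, and 1.50 and 1.50 in WT 3% O2. The highest value was 1 array, WT P3 20% O2 replicate 2, and the passages overlapped (adjusted p = 0.419). Without that array the change was 0.0029, so the sign rested on it, and since most values on both sides were at the floor no fold is given. With the let-7d hairpin giving both strands, mmu-let-7d changed by −2.39 while no change could be measured for its partner at this signal.

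The order of the 8 groups was similar among seed-sharing members, but few neighbours in it were apart. For mmu-let-7a, b, c, e and f the highest mean was in Ercc1-/- P3 20% O2, followed by Ercc1-/- P3 3% O2, WT P3 20% O2 and WT P3 3% O2, and the lower 4 places were taken by P7 groups. The lowest mean was in Ercc1-/- P7 3% O2 for mmu-let-7a (7.68 ± 1.57), d (6.23 ± 1.44), e (5.73 ± 0.31), f (6.23 ± 1.67), g (5.47 ± 1.27), i (8.43 ± 1.20) and mmu-miR-98 (2.22 ± 1.02; SD, n = 2 each), as it was for mmu-let-7c (9.67 and 8.11), and in Ercc1-/- P7 20% O2 for mmu-let-7b (9.70 ± 0.16). Of the 7 neighbour pairs in each order, the arrays overlapped in all 7 for mmu-let-7a, b, d, d* and mmu-miR-98, in 6 for mmu-let-7e, f, g and i, and in 5 for mmu-let-7c. At the step from the lowest P3 group to the highest P7 group the arrays overlapped for 8 of the 9 seed-sharing members, the exception being mmu-let-7i, and of their 54 neighbour pairs within a passage 5 did not overlap. Neighbouring groups were thus mostly not told apart for these members, either within a passage or across it. How often neighbouring groups overlapped for the other miRNAs tested was not counted. The overlaps are therefore not read as particular to the family.

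Within the 4 genotype and oxygen strata no member was called in limma, and the strata differed in size. In Ercc1-/- cells in 20% O2 the seed-sharing members changed by −1.06 (mmu-let-7b) to −3.28 (mmu-let-7f), 7 members had an unadjusted p under 0.05, against 86 of 235 miRNAs (36.6%), and the smallest adjusted p was 0.0990, with 3 of 235 miRNAs called (1.28%). In Ercc1-/- cells in 3% O2 the changes were −0.80 (mmu-let-7b) to −4.32 (mmu-let-7f), 8 members had an unadjusted p under 0.05, against 74 of 235 miRNAs (31.5%), and the smallest adjusted p was 0.0506 for mmu-let-7e, with 0 of 235 miRNAs called (0%). With the slide as a block, 8 members were called in that stratum, against 36 of 235 miRNAs called lower (15.3%). Single arrays decided these counts: without Ercc1-/- P7 20% O2 replicate 1, 8 members were called in Ercc1-/- cells in 20% O2, where 180 of 235 miRNAs (76.6%) then were. In 3% O2, 8 members were called without either Ercc1-/- P7 20% O2 array (69 of 235 miRNAs, 29.4%) and 7 without either WT P7 20% O2 array (29 of 235, 12.3%), none of which is an array of that stratum. Where a group was left with 1 array, that array was taken to vary like the other groups. In WT cells in 20% O2 the changes were −0.36 (mmu-let-7b) to −1.84 (mmu-let-7f) and in WT cells in 3% O2 −0.23 (mmu-let-7b) to −2.20 (mmu-miR-98), with 0 members at an unadjusted p under 0.05 in either, against 16 of 235 miRNAs in 20% O2 (6.81%) and 13 in 3% O2 (5.53%). Of all miRNAs 3 were called in 20% O2 (1.28%) and 0 in 3% O2.

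The WT change in 20% O2 rested on slide 2. On slide 1 the seed-sharing members moved by −0.11 to 0.18 between P7 and P3, and on slide 2 by −0.90 to −3.69. Without WT P7 20% O2 replicate 1 their median change was −2.87 in place of −1.56, with adjusted p of 0.120 to 0.579, and without WT P7 20% O2 replicate 2 it was −0.27. Averaged over strata, 8 members were called with or without that array, and the change of mmu-let-7f was −3.32 without it. On slide 1 alone 0 members were called (adjusted p 0.0999 to 0.121 for the 8), as were 6 of 235 miRNAs (2.55%), and on slide 2 alone 9 members and 179 of 235 miRNAs were (76.2%), with 4 residual degrees of freedom on each slide. The direction was the same on both slides for the 9 seed-sharing members. For mmu-let-7d* the slide 1 change was −0.01 with values at or near the floor, so no direction is read from it. How often the slides shared a direction among all miRNAs was not counted.

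**Figure D2:**
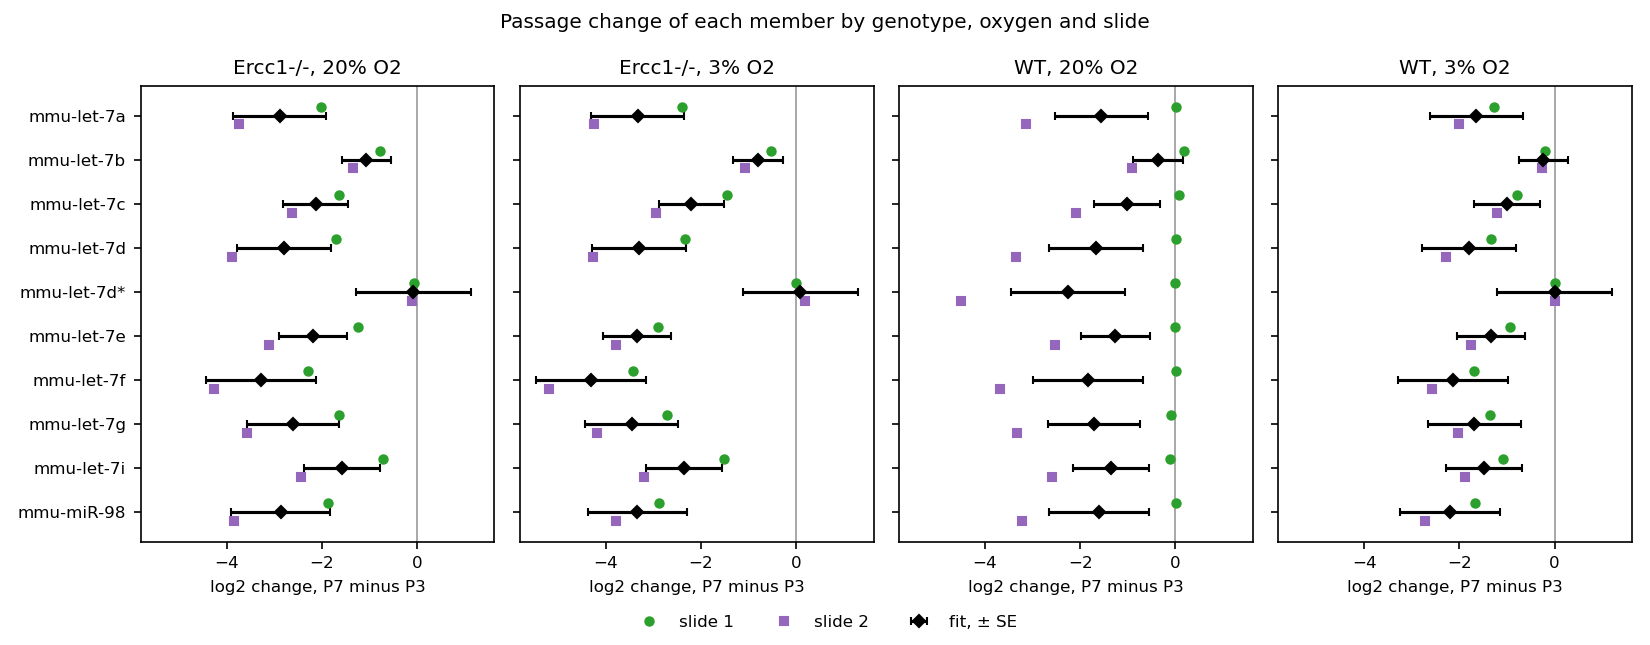
Passage change (P7 minus P3, log2) of each member in the 4 strata of genotype and oxygen; diamonds are the fit with its SE, circles slide 1 and squares slide 2. The changes reached −4.32 in Ercc1-/- cells in 3% O2, mmu-let-7b lay nearest 0 among the seed-sharing members in every stratum, and the slide 1 values of WT cells in 20% O2 lay near 0.

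The passage change was compared between genotypes. It was more negative in Ercc1-/- than in WT cells for all 9 seed-sharing members, with a difference of −0.55 to −1.81 (median −1.31, adjusted p 0.769 to 0.787), and 0 of them had an unadjusted p under 0.05, against 11 of 235 miRNAs (4.68%). No miRNA of 235 was called for this difference (0%). The median difference was −0.63 without WT P7 20% O2 replicate 1 and −1.97 without its replicate 2. These arrays therefore do not show that the fall differed between Ercc1-/- and WT cells.

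Members with the same seed did not fall by the same amount. Each value was set against the mean of the 9 seed-sharing members on its array, which removes whatever the 9 share. This deviation was higher at P7 for mmu-let-7b by 1.43 (SE 0.39, adjusted p = 0.00814) and lower for mmu-let-7f by 0.84, a change of −0.84 (SE 0.28, adjusted p = 0.0210), and the other 7 were not called. On P7 arrays the deviation of mmu-let-7b was 0.84, 2.46 and 3.72 at its lowest, median and highest, against 0.67, 0.84 and 1.30 on P3 arrays. For mmu-let-7f it was −0.92, −0.10 and 1.00 on P7 arrays, against 0.60, 0.78 and 1.14 on P3 arrays. Both members overlapped between passages, and the widest spread was on P7 arrays. Set against the same family mean, 167 of 235 miRNAs were called (71.1%), so the count of 2 is read only as a difference among the 9. The adjustment ran over these 235 miRNAs, and with so many called it raised the p-values little. Unadjusted limma p-values were 0.00419 for mmu-let-7b and 0.0130 for mmu-let-7f. No adjustment over the 9 members alone was run.

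The other deviations were not called. They changed by 0.46 for mmu-let-7c (adjusted p = 0.0961), 0.36 for mmu-let-7i (adjusted p = 0.126), 0.01 for mmu-let-7e, −0.31 for mmu-let-7a (adjusted p = 0.220), −0.32 for mmu-let-7g (adjusted p = 0.199), −0.34 for mmu-let-7d (adjusted p = 0.171) and −0.45 for mmu-miR-98 (adjusted p = 0.129). Without WT P7 20% O2 replicate 1 the changes were 1.68 for mmu-let-7b (adjusted p = 0.00205) and −0.99 for mmu-let-7f (adjusted p = 0.00764). The call of mmu-let-7f was lost without Ercc1-/- P3 20% O2 replicate 1 or Ercc1-/- P3 3% O2 replicate 1 (adjusted p = 0.0545 in both), and with the median of the 9 in place of the mean (−0.23, adjusted p = 0.361). With the median, mmu-let-7b (2.04, adjusted p = 0.00467), mmu-let-7c (1.07, adjusted p = 0.0129) and mmu-let-7i (0.97, adjusted p = 0.00711) were called higher, against 195 of 235 miRNAs called in all. That of mmu-let-7b held when each array was left out (1.18 to 1.68, adjusted p 0.00205 to 0.0232). In Ercc1-/- cells in 3% O2 alone, mmu-let-7b was higher by 2.14 relative to the family (adjusted p = 0.0410).

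**Figure D3:**
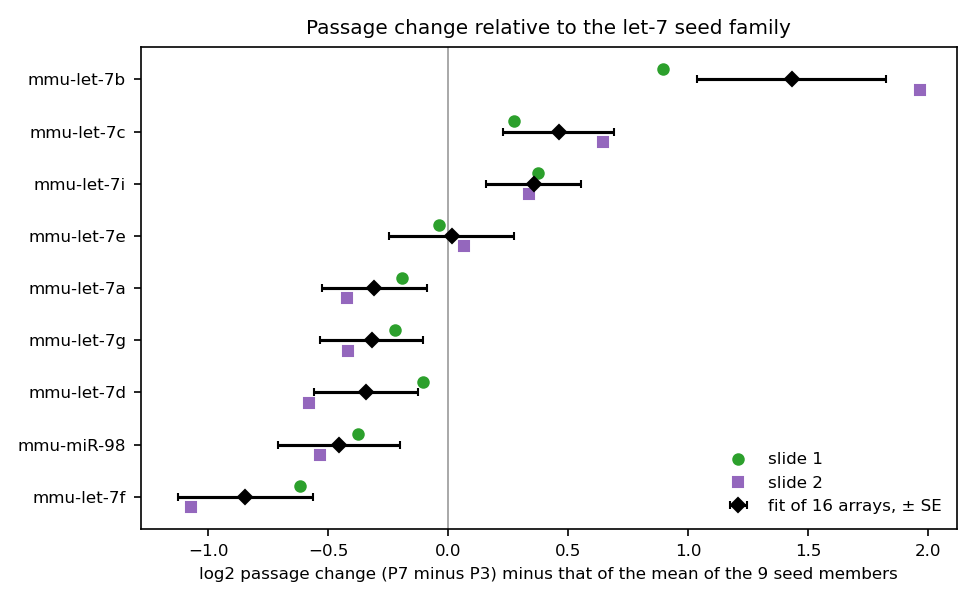
Passage change (P7 minus P3, log2) of each seed-sharing member relative to the mean of the 9 on the same array; diamonds are the fit of 16 arrays with its SE, circles slide 1 and squares slide 2. The change of mmu-let-7b (1.43) lay farthest above 0 and that of mmu-let-7f (−0.84) farthest below it, each on the same side on both slides.

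The sequences printed above were set beside these changes. Members with more G and C tended to fall less. Across the 9 seed-sharing members the G and C count correlated with the passage change at Pearson r 0.853 and Spearman rho 0.843. On slide 1 r was 0.897 and on slide 2 0.821. The order was not strict: mmu-let-7d, with 9 G or C, changed by −2.39, and mmu-let-7a and g, with 8, by −2.35 and −2.37. Without mmu-let-7b r was 0.798 and without mmu-let-7f 0.806. The 9 members share arrays, probe chemistry and most of their bases, so this is a description of 9 related sequences and was not tested. The relation was not examined among the other miRNAs, so it is not read as particular to the family. Sequence distance showed no such order, with a median absolute difference of passage change of 0.65 between the 4 pairs that differ by 1 base, 0.60 between the 10 that differ by 2, 0.78 between the 11 that differ by 3 and 0.66 between the 9 that differ by 4. Members of one locus were not uniformly alike either: mmu-let-7a, f and d of chromosome 13 changed by −2.35, −2.89 and −2.39, whereas mmu-let-7b and c of chromosome 15 changed by −0.62 and −1.59, and mmu-let-7c has a second gene on chromosome 16.

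**Figure D4:**
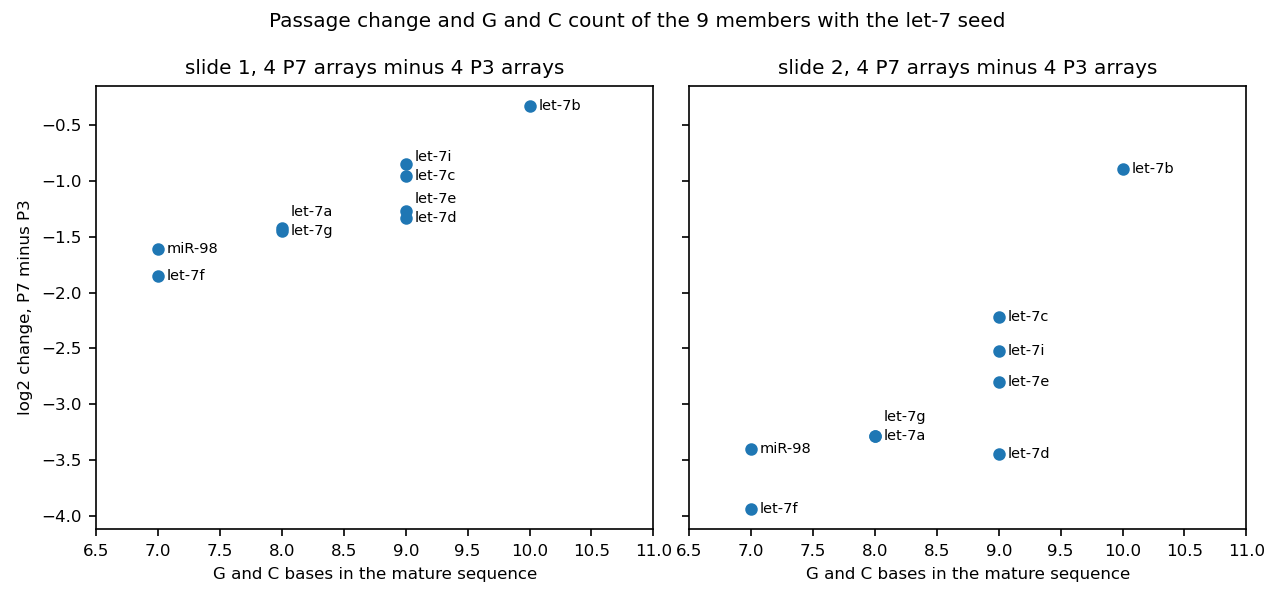
Passage change (P7 minus P3, log2) of the 9 seed-sharing members against the number of G and C bases in the mature strand, on slide 1 and on slide 2 (4 arrays of each passage on a slide). On both slides mmu-let-7f, with 7 such bases, lay lowest (−1.85 on slide 1 and −3.93 on slide 2) and mmu-let-7b, with 10, lay highest (−0.33 on slide 1 and −0.90 on slide 2).

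The probes of a member gave similar changes. Each seed-sharing member had 2 probes of 10 spots, and mmu-let-7d* had 4 probes of 5 spots. The brightest and the dimmest probe gave −2.30 and −2.54 for mmu-let-7a, −0.66 and −0.52 for mmu-let-7b, −1.53 and −1.80 for mmu-let-7c, and −2.85 and −3.14 for mmu-let-7f. The passage change of the ratio of the 2 probes was −0.14 to 0.30 across the 9, and 0 of them were called, against 18 of 173 miRNAs with at least 2 probes (10.4%). With the slide as a block, 4 of the 9 ratios were called, against 32 of 173 (18.5%).

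In the comparison of genotypes no member was called. The median difference was negative at P7 and positive at P3, but in 20% O2 both signs rested on single arrays. Averaged over passage and oxygen, the seed-sharing members differed between Ercc1-/- and WT by −0.52 to 0.11 (median −0.43, adjusted p of 0.933 or more), against 4 of 235 miRNAs called (1.70%). That median was −0.05 without WT P7 20% O2 replicate 1 and −0.67 without its replicate 2. At P7 their median difference was −0.78 in 20% O2 and −1.15 in 3% O2 (−1.80 without Ercc1-/- P7 3% O2 replicate 1 and −0.19 without its replicate 2), and at P3 it was 0.16 in 20% O2 (−0.06 without WT P3 20% O2 replicate 1) and 0.43 in 3% O2. In P7 3% O2, 1 member had an unadjusted p under 0.05, against 7 of 235 miRNAs (2.98%), and in the other 3 strata 0 members had. These comparisons use the same arrays as the passage comparisons and are not separate evidence. In P7 20% O2 the sign rested on 1 array: the median was 0.35 without WT P7 20% O2 replicate 1 and −2.17 without WT P7 20% O2 replicate 2.

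Oxygen gave no call either. Averaged over genotype and passage, the seed-sharing members differed between 20% and 3% O2 by 0.00 to 0.59 (median 0.40), against 2 of 235 miRNAs called (0.851%). That median was 0.08 without WT P7 20% O2 replicate 1 and 0.74 without its replicate 2. The median was 0.66 in Ercc1-/- P7 cells, 0.12 in Ercc1-/- P3 cells (−0.12 without the 20% O2 replicate 1), 0.42 in WT P7 cells and 0.32 in WT P3 cells. In WT P7 cells it was 1.55 on slide 1 and −0.70 on slide 2, and without WT P7 20% O2 replicate 1 it was −0.89. In Ercc1-/- P7 cells it was −0.35 without the 20% O2 replicate 1, so both P7 signs rested on single arrays. The passage change differed between 20% and 3% O2 by a median of 0.41 with all arrays, where no member was called. Without WT P7 20% O2 replicate 1 that median was −0.24, so its sign rested on this array. For mmu-let-7e the Ercc1-/- P7 difference was 1.30, with the 20% O2 arrays (7.85 and 6.22) above the 3% O2 arrays (5.95 and 5.52), and it did not pass the test.

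Patterns over the 16 arrays were close among the seed-sharing members. Their 36 pairs correlated at r 0.686 to 0.998 (median 0.961), which is a description of arrays that share slides and scaling, while mmu-let-7d* correlated with them at 0.061 to 0.400. Outside the list, the miRNAs most like the mean of the 9 were miR-199a-3p (r 0.982), miR-26b (0.966) and miR-329 (0.966). For mmu-let-7b they were miR-542-5p (0.821), miR-376a* (0.816) and miR-204 (0.792), none of which was among the 3 closest to the family mean. For mmu-let-7c they were miR-322 (0.939), miR-329 (0.932) and miR-199a-3p (0.930), and for mmu-let-7e miR-199a-3p (0.950), miR-872 (0.944) and miR-369-5p (0.935). For mmu-let-7a, d, f, g, i and mmu-miR-98 the 3 were miR-199a-3p, miR-26b and miR-329. The closest to mmu-let-7d* was miR-328 (0.924, and 0.360 on slide 1 alone), with miR-351 (0.764) and miR-467a* (0.694) next.

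Of the miRNAs that lie next to let-7 genes, 5 of 5 were tested, and 4 were called lower and 1 higher at P7 than at P3 with the scaling used here. Over all 235 miRNAs 76 were called lower (32.3%) and 53 higher. The 5 neighbours belong to the miR-99/100 and miR-125 families, whose seeds differ from that of let-7. The changes were −1.68 for miR-99a (adjusted p = 0.00639), −1.63 for miR-100 (adjusted p = 0.00911), −1.22 for miR-125b-5p (adjusted p = 0.0174) and −0.71 for miR-125a-5p (adjusted p = 0.0417). The exception, miR-99b, was higher at P7 by 1.11 (adjusted p = 0.0124), although it comes from the same locus as mmu-let-7e (−2.03) and miR-125a-5p. miR-202-3p, whose seed is close to that of let-7, was also higher, by 1.57 (adjusted p = 0.0124). Of the let-7 star strands other than mmu-let-7d*, those of let-7a, b, c-1, f, g and i had probes but were above background on at most 3 of 16 arrays and were not tested.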

How the data were processed

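Total RNA of 16 MEF cultures was labelled with Cy3 and hybridised to 1-colour Agilent mouse miRNA arrays. The deposited intensity values were made by the authors with Agilent Feature Extraction (version 10.7.1.1 in the file headers, an older version in the methods), which subtracts the background of each spot and does not scale arrays. The software flags that the authors deposited (other values, outlier and well above background marks) were used as filters. The series table of the authors holds 1 summed linear intensity per miRNA, unscaled.

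Outlier spots and control spots were left out, spots were averaged per probe and probes per miRNA. A probe was above background when a share of at least 0.5 of its spots was marked so, and 1 such probe sufficed for its miRNA. The scale of each array was set so that the mean log2 signal of the 57 miRNAs detected on all 16 arrays was equal. Values under 2.82 (1.50 on the log2 scale) were set to that floor, the median over arrays of the lowest signal above background. The 235 of 611 mouse miRNAs detected on both arrays of some group were tested with limma 3.58.1 in R 4.3.3: 8 group means, 8 residual and 3.58 prior degrees of freedom, and p-values adjusted by Benjamini-Hochberg separately in 18 comparisons. The number of arrays limits the precision. The scripts were tested on simulated data.

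The family and the lists were chosen with earlier results of these data known, although the rule for the members reads only names. Named miRNAs were the 10 members, the 3 other miRNAs closest to each member and to the family mean by Pearson r over 16 arrays, and every tested let-7 neighbour, star strand or miR-202-3p. Alternatives covered scale, floor, filter, background, summary, blocks, weights, the methods' t-test and each array left out. Normexp was run on the median spot signal, since the files used here hold no mean spot signal, and this, the fits of single slides, the probe ratios and the base counts were added after seeing the data.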

Additional observations from a re-analysis of the deposited data

How the results depend on the processing

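Signal over background, and not counting depth, limits mmu-let-7d* and mmu-miR-98, and 2 arrays a group limit all strata. Averaged over strata, 8 members were called lower at P7 under every scale, floor, filter, weight and summary run, but mmu-let-7b took the place of mmu-miR-98 under normexp (adjusted p = 0.0341) and where only miRNAs detected on every array were tested (adjusted p = 0.0310); slide 1 alone gave 0, slide 2 alone 9, and leaving out 1 array 8 to 10. The count of 10, without WT P3 20% O2 replicate 1, includes mmu-let-7d*, for which 1 array at 6.01 then stood for its group, and is no support for a change of it. With the replicate number as a block (replicate number, slide and scan coincide), 9 were called. Whether arrays with the same replicate number also share a cell line is not given by any label. Differences between replicates correlated at a median r of 0.607 among P3 groups, 0.811 among P7 groups and 0.034 between passages (lowest −0.336). A block common to both passages may thus not take up what replicates share within a passage, and no label pairs the arrays.

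In Ercc1-/- cells in 3% O2 the count of 0 became 8 with the replicate block (43 of 235 miRNAs in all), 7 with cell line as a random block (32), 8 with array weights (90), 6 of 8 tested (9 of 57) when testing was limited to miRNAs detected on every array, 5 with normexp (9), 1 with the methods' t-test (21), and 0 to 8 leaving out 1 array. In Ercc1-/- cells in 20% O2 it became 1 with the methods' t-test (4) and 0 to 8 leaving out 1 array (8 without its P7 replicate 1, where 180 were called). In WT cells in 3% O2 it became 6 with array weights (46) and 3 with the methods' t-test (13). After Benjamini-Hochberg adjustment the methods' t-test passed 0 miRNAs in all 12 comparisons of single groups. In genotype, oxygen and interaction comparisons, and in passage in WT cells in 20% O2, 0 members were called under every alternative run.

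Relative to the family, the count of 2 (167 of 235 miRNAs) became 4 when testing was limited to miRNAs detected on every array (52 of 57), 4 with normexp (212), 3 with the family median (195), and 1 to 3 leaving out 1 array. Under normexp mmu-let-7d* changed by 0.33 with passage, mmu-let-7c by −0.14 and mmu-let-7i by −0.15 relative to the family, each the reverse of its direction, and mmu-miR-98 lost its call (−0.13, adjusted p = 0.686). Leaving out 1 array, mmu-let-7d* changed by −1.13 (without WT P3 20% O2 replicate 1) to 0.0029 (without its replicate 2). The causes were not tested. The median of all miRNAs shifted by 0.16 with quantile normalisation, −0.37 with the mean of all mouse miRNAs as the scale and 0.74 with normexp.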

Other observations

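The star strands of the family were near background. Those of let-7a (2 of 16 arrays), b (3), c-1 (2) and f (1) were above background on few arrays, and those of let-7g and i on 0. For mmu-let-7b* 2 of the 3 were P7 arrays, and its highest level was 5.61 at P7, against 5.49 at P3. For mmu-let-7a* both were P3 arrays, and its highest level was 1.50, the floor, at P7, against 4.04 at P3. None was tested.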
